A study of Rattus norvegicus with 12 samples.

Results

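The genes described here encode the constitutive subunits of the proteasome, the protease complex that degrades ubiquitin-tagged proteins. They were taken from the RNA table by symbol, as every Psma, Psmb, Psmc or Psmd gene with a number, without the immunoproteasome genes Psmb8, Psmb9 and Psmb10, and with a summed count of at least 60 over the 6 RNA libraries. Of 26949 genes in the table, 39 had such a symbol, 3 were the immunoproteasome genes and 0 fell under the minimum, which left 36. Their summed counts ran from 103.4 for Psmb11 to 15593 for Psmd2, and all 36 also passed the filter on low counts that left 17935 genes for testing. The tested libraries were 3 from the hippocampus of male rats exposed to chronic intermittent hypoxia (CIH, repeated bouts of low oxygen) for 4 weeks. They were set against 3 from the hippocampus of male rats kept in normoxia for 4 weeks (control). The labels give no strain, age, or depth and timing of the hypoxic bouts, and name no altered gene in either group. They also do not tie each library to its own animal, so a p-value here measures only how much these libraries vary.

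The proteasome has a barrel-shaped core particle, made of stacked rings of alpha and beta subunits, whose inner chamber holds the protease sites. A regulatory particle caps the barrel. Its base is a ring of ATPases that unfolds substrates, and its lid removes the ubiquitin chain before the substrate enters. The subunits are needed in fixed proportions, and when proteasome activity is low their genes are induced together by the transcription factor NRF1 (gene Nfe2l1), which binds antioxidant response elements. In neurons the proteasome also acts at synapses, where the turnover of proteins is part of plasticity. By role, the 36 genes fell into 14 of the core particle, 17 of the regulatory particle, 3 chaperones that assemble the base and 2 core genes known from single tissues, Psma8 in testis and Psmb11 in thymus.

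The promoters of these genes were read first, since a shared regulator acts through shared elements. RefSeq promoters of the rat assembly GRCr8 (250 bases before to 50 bases after the annotated start) were found for 31 of the 36 genes, all but Psma7, Psmb11, Psmd6, Psmd12 and Psmd14. The core of the antioxidant response element, TGACNNNGC, searched on both strands, was present in 7 of the 31 (22.6%), against 3342 of 27457 promoters of all genes (12.2%). It was present in 4 of 13 core particle promoters and in 2 of 14 regulatory particle promoters. A GC box (GGGCGG, both strands) was present in 22 of the 31 (71%), against 34.9% of all promoters. A CCAAT box (CCAAT, both strands) was present in 16 of the 31 (51.6%), against 37.7% of all promoters. These are letter matches only; binding was not measured. The 170 bases before the start are shown 5′ to 3′ in the direction of the gene for the 6 genes with a TGACNNNGC match in that stretch, and capitals mark the match. They are shown because the stretch holds the NRF1 and NRF2 recognition letters in the catalytic genes Psmb5 and Psmb6, the genes of the structural subunits Psmb2 and Psma3, the base scaffold gene Psmd1 and the chaperone gene Psmd9.
Psmb5 (chr15:32047380-32047549, minus strand): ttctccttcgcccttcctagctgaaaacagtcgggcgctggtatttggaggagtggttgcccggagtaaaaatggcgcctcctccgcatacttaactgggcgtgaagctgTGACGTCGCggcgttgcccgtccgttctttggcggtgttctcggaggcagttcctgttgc
Psmb6 (chr10:55737718-55737887, plus strand): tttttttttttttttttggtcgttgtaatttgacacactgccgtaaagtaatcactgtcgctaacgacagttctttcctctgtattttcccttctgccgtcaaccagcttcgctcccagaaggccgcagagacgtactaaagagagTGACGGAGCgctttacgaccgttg
Psmb2 (chr5:144254888-144255057, plus strand): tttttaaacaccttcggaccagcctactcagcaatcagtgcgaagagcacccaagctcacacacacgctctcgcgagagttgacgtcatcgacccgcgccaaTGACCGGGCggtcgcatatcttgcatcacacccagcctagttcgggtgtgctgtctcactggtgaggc
Psma3 (chr6:95219579-95219748, plus strand, match on the opposite strand): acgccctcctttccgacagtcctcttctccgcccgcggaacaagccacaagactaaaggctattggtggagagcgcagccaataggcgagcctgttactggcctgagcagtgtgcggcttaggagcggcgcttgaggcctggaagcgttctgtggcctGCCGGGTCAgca
Psmd1 (chr9:94157801-94157970, plus strand): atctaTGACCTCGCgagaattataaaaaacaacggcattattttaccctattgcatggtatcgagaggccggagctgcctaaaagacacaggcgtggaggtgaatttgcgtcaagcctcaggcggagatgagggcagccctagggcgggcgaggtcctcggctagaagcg
Psmd9 (chr12:39018265-39018434, minus strand, first match on the opposite strand): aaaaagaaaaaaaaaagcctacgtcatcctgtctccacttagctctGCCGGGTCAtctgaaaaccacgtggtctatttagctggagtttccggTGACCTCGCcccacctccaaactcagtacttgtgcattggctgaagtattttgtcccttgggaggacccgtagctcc

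The first base of the match lay 60 bases before the start in Psmb5, 24 in Psmb6, 68 in Psmb2, 12 in Psma3 and 165 in Psmd1, and 124 and 77 bases before it in Psmd9. Psmd1 had another match 23 bases into the transcript, and the lid gene Psmd3 had its match only there, at base 14. In Psmb2 the match shared 1 base with a CCAAT box and 4 bases with a GC box; no other match overlapped either box.

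Levels are compared between genes as TPM, the authors' values corrected for transcript length and scaled to one total per library. The median gene of the core particle stood at 91.8 TPM over the 6 libraries, with a range from 32.7 for Psma3 to 156 for Psmb1. The median gene of the regulatory particle stood at 81.5 TPM, with a range from 32 for Psmd14 to 112 for Psmc3. The median of all tested genes was 16.4 TPM, so every gene of both particles lay above it. The label of constitutive subunits came from the symbol rule, and a level above that median does not test it. The chaperone genes stood at 49.6 TPM (Psmd9), 33.4 TPM (Psmd5) and 10.1 TPM (Psmd10). The testis gene Psma8 stood at 9.29 TPM and the thymus gene Psmb11 at 0.663 TPM, and neither reached the level of any gene of the 2 particles. Like them, Psmd10 lay below the median of all tested genes and below the immunoproteasome gene Psmb10 at 16.1 TPM. The TPM of both particles was nearly equal in sum. Over the 14 core genes it summed to 1119, 1308 and 1336 TPM in CIH libraries and 1335, 1300 and 1502 TPM in control libraries. Over the 17 regulatory genes it summed to 1205, 1329 and 1323 TPM in CIH libraries and 1282, 1286 and 1433 TPM in control libraries. In both sums the groups overlapped, with CIH replicate 1 the lowest library and control replicate 3 the highest.

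**Figure D1:**
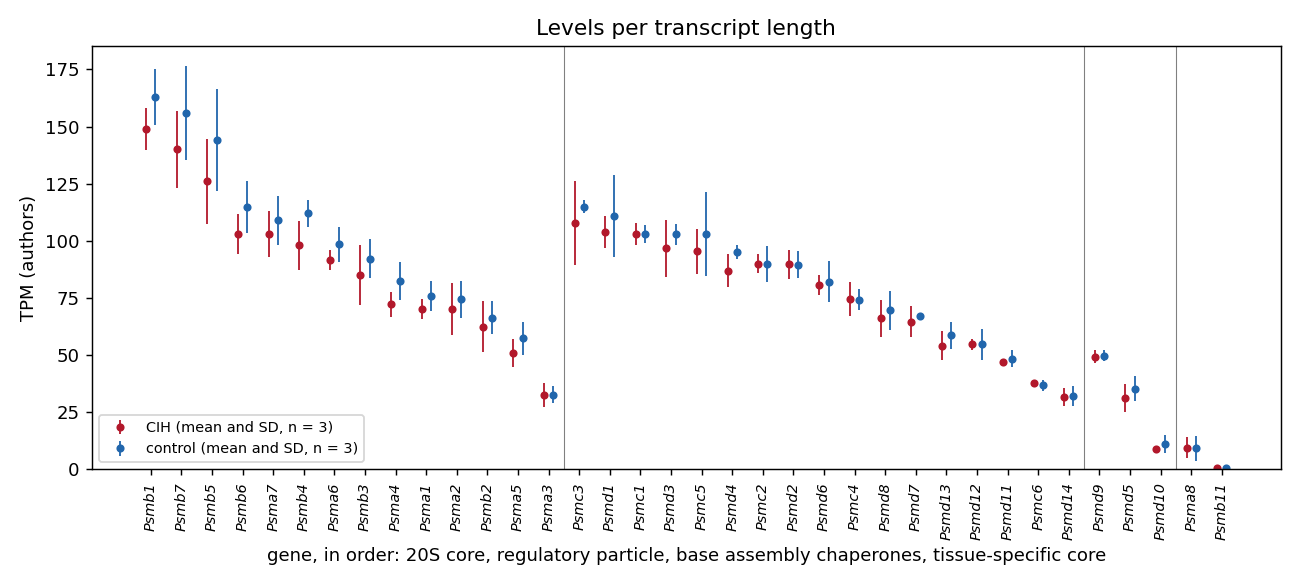
Mean TPM of each gene in CIH (red, left of each pair) and control (blue), with bars of 1 SD over 3 libraries; the vertical axis is TPM on a linear scale, and vertical lines part the core particle, the regulatory particle, the base assembly chaperones and the tissue-specific core genes. The core genes run from Psmb1 at 156 TPM over all libraries to Psma3 at 32.7 TPM, and the bars of the groups overlap for most genes.

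The comparison asked whether CIH differs from control in the RNA of proteasome subunits. No gene of the 36 passed the edgeR quasi-likelihood test with Benjamini-Hochberg adjustment over all 17935 genes (threshold 0.05), and neither did any other gene (0%). At an unadjusted p under 0.05 there were 0 of the 36, against 319 of all genes (1.78%). DESeq2 called 0 of the 36 at an adjusted p under 0.05, against 9 of all genes (0.0502%). In 0 of the 36 did the CIH libraries lie wholly above or below the control libraries, against 5.7% of all genes. The adjusted p was 1.00 for each gene, and the smallest unadjusted p was 0.17, for Psma4. The median size of a log2 fold change was 0.07 over the 36 and 0.12 over all genes. The 36 genes were also more abundant, at a median of 75.9 TPM against 16.4 TPM over all genes. Genes of like abundance were not compared, so these sizes do not show that the 36 genes were unusually stable. The direction of their fold changes was uneven. The log2 fold change, CIH over control, was below 0 for 29 of the 36 genes, against 49.4% of all genes, and the median was -0.07 against 0.00 over all genes. Genes read from the same 6 libraries are not independent observations, so this count is given as a description. In bulk tissue, fewer cells of a type and less RNA per cell cannot be told apart.

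**Figure D2:**
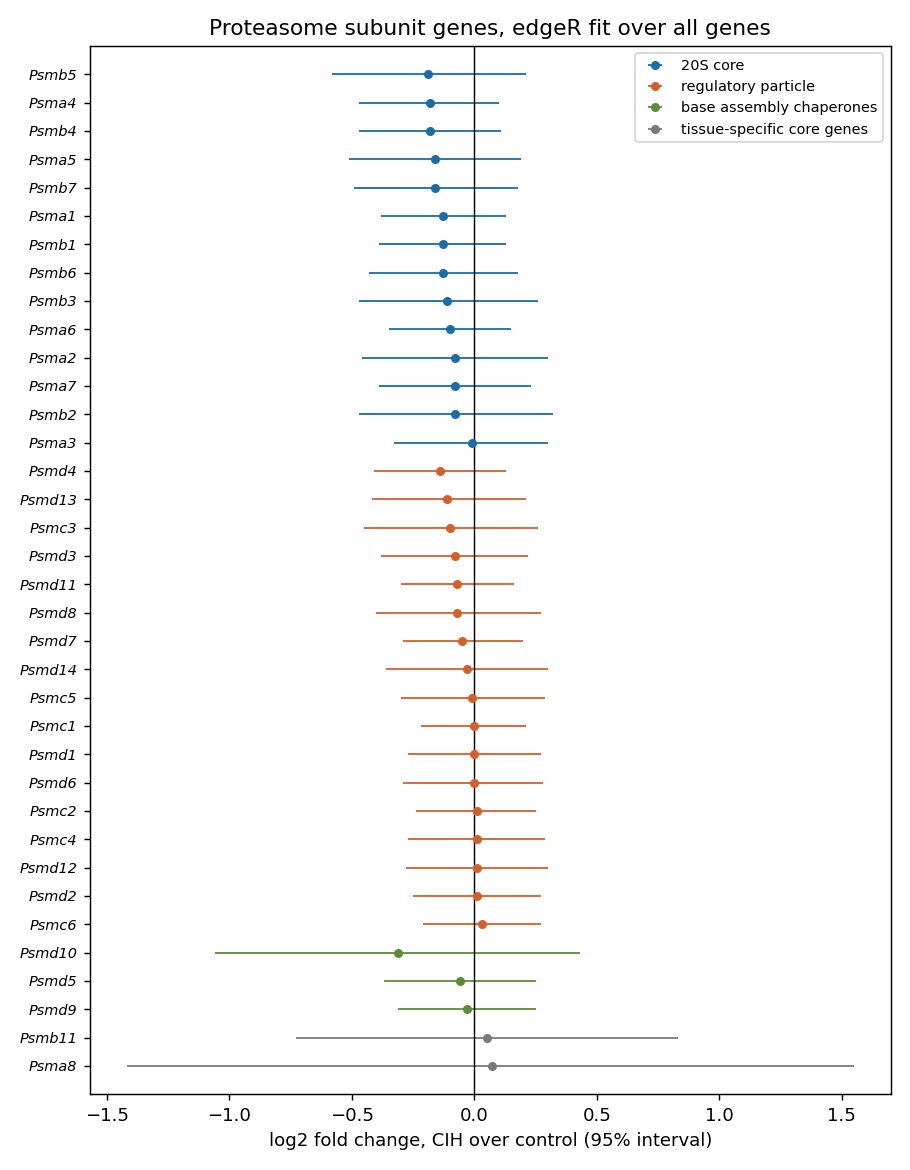
Log2 fold change of each gene, CIH over control, from the edgeR fit over all genes, with its 95% interval; genes are ordered within the core particle (blue), the regulatory particle (orange), the base assembly chaperones (green) and the tissue-specific core genes (grey). All 14 core points lie left of 0, from -0.19 to -0.01, the regulatory points lie between -0.14 and 0.03, and every interval holds 0.

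In the core particle the log2 fold change was below 0 for all 14 genes, with a mean of -0.12. The values ran from -0.19 for Psmb5 to -0.01 for Psma3, with SEs of 0.10 to 0.17. The 95% intervals reached no further than -0.58 on the low side and 0.32 on the high side. The catalytic beta genes encode the subunits whose protease sites cut the substrate. Psmb5, the chymotrypsin-like subunit that bortezomib inhibits, had 35.8, 50 and 43.3 CPM in CIH libraries against 42.5, 47.4 and 57.1 CPM in control libraries. The lowest value was in CIH replicate 1 and the highest in control replicate 3, and the other CIH and control libraries overlapped. The log2 fold change was -0.19 (SE 0.17, 95% interval -0.58 to 0.21, edgeR adjusted p = 1.00). In TPM, Psmb5 averaged 126 ± 18.5 in CIH and 144 ± 22.3 in control (SD, n = 3 each).

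Psmb7, the trypsin-like subunit, had 48.5, 59.6 and 61.9 CPM in CIH libraries against 56.1, 61.3 and 71.9 CPM in control libraries, a log2 fold change of -0.16 (SE 0.14). Psmb6, the caspase-like subunit, had 27.1, 33.9 and 30.1 CPM in CIH libraries against 29.6, 34.8 and 35 CPM in control libraries, a log2 fold change of -0.13 (SE 0.13). In both genes CIH replicate 1 was the lowest library, and the groups overlapped. The structural beta subunits close the rings around these sites without a protease site of their own. Psmb1, the core gene with the highest TPM, had 42.9, 49.8 and 48.4 CPM in CIH libraries against 47.4, 51.7 and 55.3 CPM in control libraries, a log2 fold change of -0.13 (SE 0.11). Psmb4 had 32.1, 40.9 and 38.7 CPM in CIH libraries against 40.1, 42.6 and 44.3 CPM in control libraries, a log2 fold change of -0.18 (SE 0.12). For Psmb4 the overlap between the groups rested on CIH replicate 2, which lay just above control replicate 1. Psmb3 and Psmb2 stood at -0.11 and -0.08. Psmb1 shares its place in the genome with part of Tbp, and the sources used here do not say whether counting used strand.

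The alpha subunits form the outer rings and their gate. Psma4, with the smallest unadjusted p of the 36 genes, had 31.5, 35.6 and 37 CPM in CIH libraries against 41.2, 35 and 41.9 CPM in control libraries. Its log2 fold change was -0.18 (SE 0.12, 95% interval -0.47 to 0.10). Control replicate 2 lay within the CIH values, and the other control libraries lay above all of them. Psma3, the core gene with the lowest TPM, had 46.1, 35.5 and 44.8 CPM in CIH libraries against 42.3, 39.2 and 46.1 CPM in control libraries, a log2 fold change of -0.01 (SE 0.13). Psma3 was the 1 core gene whose lowest library was not CIH replicate 1. The other alpha genes, Psma1, Psma2, Psma5, Psma6 and Psma7, stood between -0.16 (Psma5) and -0.08 (Psma2 and Psma7).

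In the regulatory particle the log2 fold change was below 0 for 12 of 17 genes and above 0 for 5, with a mean of -0.03 and a range from -0.14 for Psmd4 to 0.03 for Psmc6. Psmc1, Psmd1 and Psmd6, counted among the 12, stood at 0.00 after rounding. The SEs ran from 0.09 to 0.15, and the 95% intervals reached no further than -0.45 and 0.30. Psmd4, a receptor that holds ubiquitin chains, had 44.7, 56.8 and 51.3 CPM in CIH libraries against 54, 56.3 and 58 CPM in control libraries, a log2 fold change of -0.14 (SE 0.12). CIH replicate 1 was the lowest library, while CIH replicate 2 lay within the control values. Psmd14, the deubiquitinase that removes the chain as the substrate is pulled in, had 19.6, 19.2 and 23.1 CPM in CIH libraries against 22.8, 18.5 and 22.2 CPM in control libraries. Its log2 fold change was -0.03 (SE 0.14, 95% interval -0.36 to 0.30), and control replicate 2 was its lowest library.

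The ATPases of the base averaged -0.01 over 6 genes, with 3 below and 3 above 0. Psmc3 had 62.4, 90.9 and 82.9 CPM in CIH libraries against 82.6, 83.3 and 86.8 CPM in control libraries, a log2 fold change of -0.10 (SE 0.15). The low value came from CIH replicate 1, and CIH replicate 2 was above every control library. Psmc6 had 37.9, 40.3 and 41.8 CPM in CIH libraries against 40.7, 36.2 and 40.8 CPM in control libraries, a log2 fold change of 0.03 (SE 0.10), with overlap of the groups. Psmc1 stood at 0.00 (SE 0.09), with 73.6 ± 2.97 CPM in CIH and 73.6 ± 3.14 CPM in control (SD, n = 3 each). Psmd1 and Psmd2, the large scaffold subunits of the base, stood at 0.00 (SE 0.11) and 0.01 (SE 0.11). The other lid genes averaged -0.05 over 7 genes, from -0.11 for Psmd13 to 0.01 for Psmd12. Psmd12 had 34.6, 39 and 37.3 CPM in CIH libraries against 37.2, 32 and 40.7 CPM in control libraries, again with overlap of the groups. Another gene lies over part of Psmc6, Psmd1, Psmd8 and the chaperone gene Psmd5 on the genome, so reads could be shared there if strand was not used.

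The core and regulatory particles were then set against each other in each library. A particle's score is the mean, over its genes, of the log2 CPM minus that gene's mean over the 6 libraries. The core score was -0.233, 0.018 and 0.027 in CIH libraries and 0.037, -0.026 and 0.178 in control libraries. The regulatory score was -0.137, 0.059 and 0.023 in CIH libraries and -0.005, -0.045 and 0.104 in control libraries. In both scores the groups overlapped, CIH replicate 1 was the lowest library and control replicate 3 the highest. The core score minus the regulatory score was -0.096, -0.041 and 0.003 in CIH libraries and 0.042, 0.019 and 0.073 in control libraries. Every CIH library thus lay below every control library, with 0.003 in CIH replicate 3 against 0.019 in control replicate 2 at the narrowest. That gap was smaller than the SD of either group. How often the difference between other sets of genes parts the groups in this way was not tested. The group means of this difference were -0.045 ± 0.0497 in CIH and 0.045 ± 0.0273 in control (SD, n = 3 each). Summed TPM of the core over summed TPM of the regulatory particle gave 0.929, 0.984 and 1.01 in CIH libraries and 1.04, 1.01 and 1.05 in control libraries. No p is given for the difference between the particles, because the genes were chosen with earlier results of these data known.

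**Figure D3:**
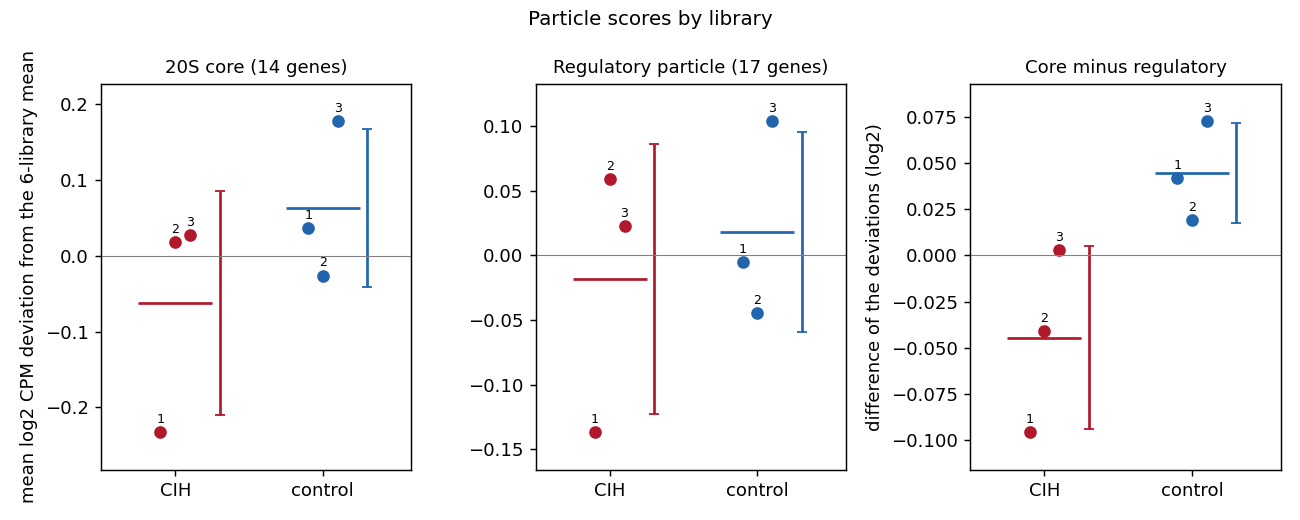
Score of the core particle (left), of the regulatory particle (middle) and their difference (right) in each CIH (red) and control (blue) library, numbered by replicate, on a log2 scale; horizontal lines are group means and bars 1 SD over 3 libraries. Both scores overlap between the groups, with CIH replicate 1 lowest and control replicate 3 highest, and the difference lies between -0.096 and 0.003 in CIH and between 0.019 and 0.073 in control.

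The extreme particle scores lay in a pair of libraries. CIH replicate 1 was the lowest of the 6 libraries for 13 of 14 core genes (92.9%) and 9 of 17 regulatory genes (52.9%), against 25.7% of all tested genes. Control replicate 3 was the highest for 9 of 14 core genes (64.3%) and 8 of 17 regulatory genes (47.1%), against 15.9% of all tested genes. Without CIH replicate 1 the mean log2 fold change of the core was -0.05, with 10 of 14 genes below 0, and that of the regulatory particle was 0.02, with 6 of 17 below 0. Without control replicate 3 the means were -0.06 (13 of 14 below 0) and 0.01 (7 of 17 below 0). With both libraries left out, a choice made after seeing the data, the core stood at 0.01 with 7 of 14 genes below 0 and the regulatory particle at 0.06 with 4 of 17 below 0. Leaving out the lowest CIH or the highest control library raises a mean fold change in any data. It therefore cannot show whether the lower core values rested on those libraries. The mean of the core minus that of the regulatory particle was -0.09 with all libraries, and -0.07, -0.07 and -0.05 in these 3 fits.

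**Figure D4:**
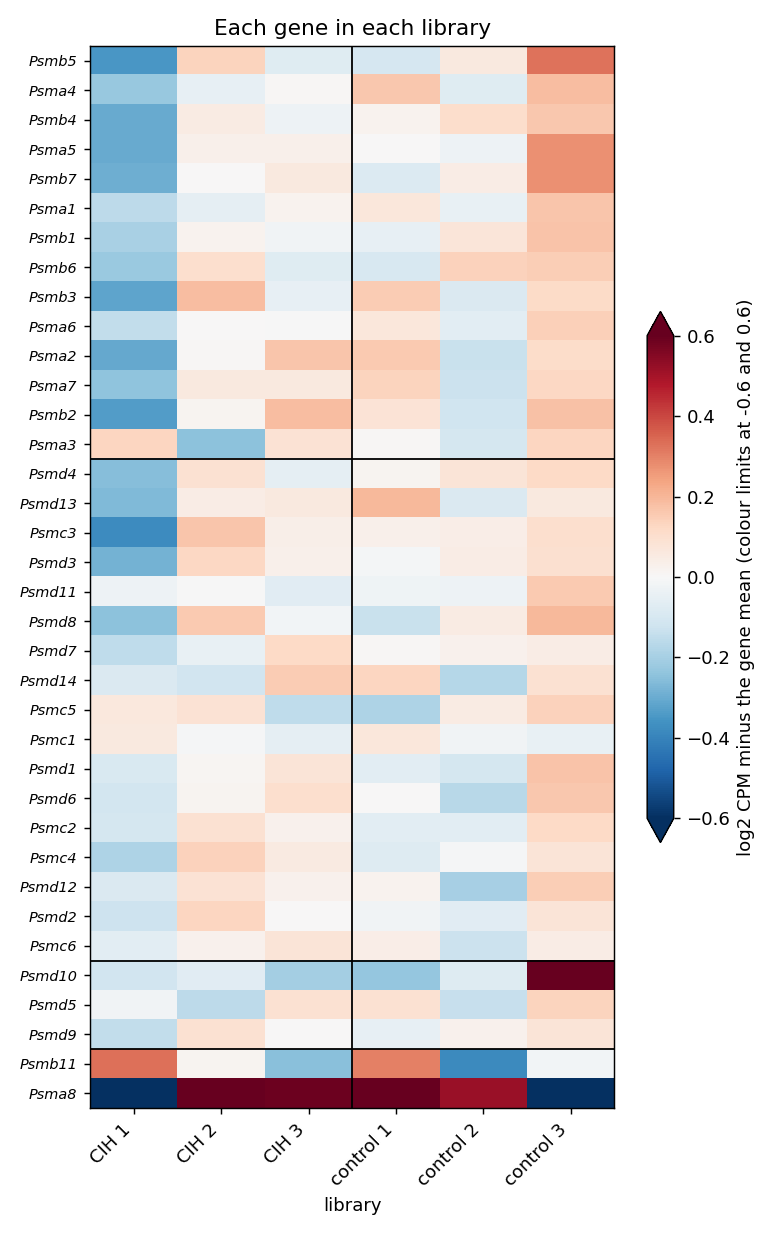
Log2 CPM of each gene in each library minus the mean of that gene over the 6 libraries, with CIH libraries left and control libraries right of the vertical line; colours run from blue (lower) to red (higher) with limits at -0.6 and 0.6, and horizontal lines part the groups of genes as in the plot of fold changes. CIH replicate 1 is the lowest library for 13 of 14 core genes and control replicate 3 the highest for 9 of 14.

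CIH replicate 1 also stood apart in other measures, whose part in the core values was not tested. It had the lowest total, 17170943 estimated counts, where the other libraries had 19713519 to 21941173. The 36 genes took 0.149% of its counts, against 0.159% to 0.177% in the other libraries. That share restates the low values of these genes and is not a separate measure. The score of CIH replicate 1 over 4 dentate granule cell markers (Prox1, C1ql2, Dsp and Calb1) was -1.47, against -0.01 and 0.36 in the other CIH libraries and -0.07 to 0.79 in control libraries. The summed CPM of that list ran from 60.7 to 415 in CIH and from 180 to 491 in control. Its score over 5 endothelial markers was 0.46, against -0.19 to -0.04 in the other 5 libraries. Its choroid plexus score over 3 markers was -1.83, where the others ran from -0.26 to 1.14. That low score lay near the floor, at 5, 8 and 2 counts of Ttr, Kl and Folr1. Scores over 5 general neuronal markers were closer, at -0.06, 0.16 and -0.05 in CIH and -0.10, -0.02 and 0.08 in control, and none of these markers was at 0 in any library. Scores over 5 oligodendrocyte markers differed within both groups, at -0.06, 0.12 and 0.62 in CIH and 0.58, -0.63 and -0.63 in control. Scores over 3 CA pyramidal markers (Wfs1, Bok and Neurod6) were -0.35, 0.32 and 0.52 in CIH and 0.58, -0.46 and -0.61 in control. Spink8, also on that list, was not tested. Neuronal, dentate and CA pyramidal markers were thus read in all 6 libraries, in differing amounts. Whether tissue from outside the hippocampus was included was not tested.

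Transcript length also moved with the libraries, a pattern looked for after the values were seen. Length was inferred for each gene from its summed counts over its summed TPM, and was not read from an annotation. It was compared among 8764 abundant genes (mean log2 CPM of at least 4). Core transcripts were short by this measure: 13 of 14 core genes fell in the shortest quartile, against 12 of 17 regulatory genes. The median deviation of that whole quartile, measured as for the scores, was -0.08, 0.05 and 0.00 in CIH libraries and 0.00, 0.00 and 0.05 in control libraries. In the longest quartile it was 0.01, -0.01 and 0.02 in CIH libraries and 0.03, -0.03 and -0.02 in control libraries. Short transcripts as a class were thus low in CIH replicate 1 and high in control replicate 3 as the core genes were, but also high in CIH replicate 2. The median log2 fold change of the shortest quartile was -0.02, and the part of length in the core values was not tested.

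**Figure D5:**
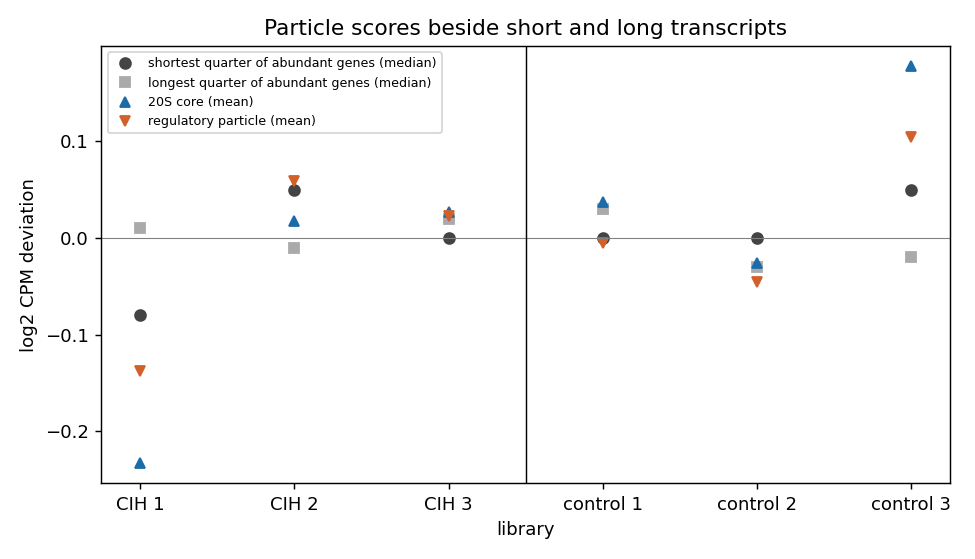
Median log2 CPM deviation of the shortest (dark circles) and longest (grey squares) quartile of abundant genes in each library, beside the core score (blue triangles) and the regulatory score (orange triangles); CIH libraries are left of the line. The shortest quartile is at -0.08 in CIH replicate 1 and 0.05 in control replicate 3, where the core score is -0.233 and 0.178.

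The chaperones that assemble the base leave the finished particle. Psmd10 (gankyrin), at 27 to 57 counts per library, had 1.51, 1.56 and 1.42 CPM in CIH libraries against 1.39, 1.55 and 2.64 CPM in control libraries. Its log2 fold change of -0.31 (SE 0.31, 95% interval -1.06 to 0.43), the lowest of the 36, rested on control replicate 3; without that library it was 0.03. Psmd9 had 17.1, 20.2 and 19 CPM in CIH libraries against 18.3, 19.3 and 20 CPM in control libraries, a log2 fold change of -0.03 (SE 0.12). Psmd5 stood at -0.06 (SE 0.13).

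Psma8 had 1.06, 3.27 and 3.14 CPM in CIH libraries against 3.43, 2.99 and 0.742 CPM in control libraries, a log2 fold change of 0.07 (SE 0.63, 95% interval -1.42 to 1.55). One library of each group was low, CIH replicate 1 and control replicate 3. The span of Psma8 overlaps that of Ss18 on the genome, so reads could be shared there if strand was not used. Only whole gene spans were compared, not exons. Psmb11, with 13 to 21 counts per library, had 1.06, 0.853 and 0.708 CPM in CIH libraries against 1.04, 0.648 and 0.834 CPM in control libraries, a log2 fold change of 0.05 (SE 0.33, 95% interval -0.73 to 0.83). At this depth a difference within that interval is not excluded. Named copies or pseudogenes of 15 of the 36 genes are listed by RefSeq; 1 of them had its own entry in the RNA table, a Psmb6 copy with 0.77 summed counts.

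Genes that act with these subunits were read from 8 lists, chosen with earlier results of these data known. Of 45 listed genes 42 were tested, 27 with a log2 fold change below 0 and 15 above, with a median of -0.03, against 49.4% below 0 and a median of 0.00 over all genes. By the edgeR test 0 of the 42 passed (adjusted p = 1.00 for the genes named here), 1 had an unadjusted p under 0.05 (1.78% of all genes did), and the groups did not overlap for 2 (5.7% of all genes did not), so both counts were about those of any genes. The gene with the small unadjusted p was Psmb9, the immunoproteasome subunit that replaces Psmb6 when interferon signalling is on. Psmb9 had 0.617, 0.901 and 0.809 CPM in CIH libraries against 1.09, 1.45 and 1.39 CPM in control libraries, from 11 to 30 counts per library. Every CIH library lay below every control library, as in either direction for 5.7% of all genes, with a log2 fold change of -0.75 (SE 0.29, edgeR adjusted p = 1.00). Psmb8 stood at -0.02 (SE 0.32, 95% interval -0.77 to 0.73) and Psmb10 at -0.01 (SE 0.22); the difference from Psmb9 was not tested. In TPM the immunoproteasome genes stood far below the constitutive beta genes they replace. Psmb8 averaged 3.47 ± 0.446 TPM in CIH and 3.62 ± 1.2 TPM in control. Psmb9 averaged 2.07 ± 0.356 TPM in CIH and 3.52 ± 0.505 TPM in control. Psmb10 averaged 16 ± 4.02 TPM in CIH and 16.3 ± 0.64 TPM in control (SD, n = 3 each for all of these).

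Among the activators that open the core gate in place of the regulatory particle, Psme2 stood at -0.26 (SE 0.17), Psme1 at -0.20 (SE 0.20) and Psme3 at 0.07 (SE 0.11). Adrm1, another ubiquitin receptor, and Sem1, a small lid subunit, both in the regulatory particle but outside the symbol rule, stood at -0.11 (SE 0.13) and -0.10 (SE 0.14). Of the particle-bound enzymes, all 5 tested were below 0; the deubiquitinases Usp14 and Uchl5 stood at -0.05 (SE 0.13) and -0.12 (SE 0.15), and the thioredoxin-like protein gene Txnl1 at -0.07 (SE 0.13).

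Pomp, the chaperone that matures the core particle, had the largest SE of the 42 tested genes in these 8 lists. It had 10.4, 8.68 and 9.15 CPM in CIH libraries against 8.94, 2.29 and 0.185 CPM in control libraries, from 4.22 estimated counts in the lowest library. Control replicate 1 lay among the CIH values, and the other control libraries lay far below them. The log2 fold change was 1.31 (SE 0.94, 95% interval -0.93 to 3.55, edgeR adjusted p = 1.00), and it ran from 0.66 without both CIH replicate 1 and control replicate 3 to 2.93 without control replicate 1. The core assembly chaperones Psmg2 and Psmg3 stood at -0.11 (SE 0.23) and -0.08 (SE 0.17).

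The NRF1 list holds the regulator named beside the promoters and the enzymes that process it. Nfe2l1 itself had 361, 342 and 276 CPM in CIH libraries against 272, 361 and 355 CPM in control libraries, a log2 fold change of -0.01 (SE 0.16). Nfe2l2, which encodes the related factor NRF2, had 22, 20.4 and 21 CPM in CIH libraries against 19, 19.6 and 18.4 CPM in control libraries. Every CIH library lay above every control library, a lack of overlap shared by 5.7% of all genes, with a log2 fold change of 0.15 (SE 0.10) that did not pass the test. Ngly1, the glycanase that activates NRF1, stood at -0.15 (SE 0.12), and Mafg, a small MAF partner, at 0.07 (SE 0.11). Among the shuttle factors and the segregase that bring substrates, Ubqln2 stood at -0.22 (SE 0.15), Ubqln4 at 0.10 (SE 0.14) and the VCP cofactor gene Nploc4 at 0.10 (SE 0.10). The ubiquitin genes Ubb and Rps27a stood at -0.06 (SE 0.14) and -0.07 (SE 0.10), and Uba1, the main ubiquitin-activating enzyme, at -0.06 (SE 0.12).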

How the data were processed

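RNA from 6 hippocampal libraries (3 CIH and 3 control), sequenced on BGI instruments, was analysed; the 6 small RNA libraries were not used here. The genome build (Rnor_6.0) and the tools HISAT2 2.2.0, Bowtie2 2.2.5 and RSEM 1.2.12 are named, per the submitters' processing notes, without saying what each did. Per the file headers, the deposited RNA table gives estimated counts, TPM and FPKM. The estimated counts deposited by the authors are not whole in 16% of values (tolerance 1e-06) and were rounded. The authors' TPM served for levels between genes and for an alternative test; 6 FPKM columns and 6 columns of the authors' averages were not used. Totals were 17170943 to 21941173 counts per library.

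Samples were grouped by title. All genes were fitted in edgeR 4.0.16 in R 4.3.3 with TMM factors; filterByExpr left 17935 genes, and quasi-likelihood p-values were adjusted by Benjamini-Hochberg over all of them (threshold 0.05). The SE is the size of the fold change over the root of F; CPM used TMM-adjusted totals, and scores used a prior count of 2. The test was checked on simulated data. Alternatives were DESeq2 1.42.0, limma 3.58.1 on log2 TPM (pseudocounts 1 and 0.1), RLE factors, no filter on low counts, a replicate block, and each library left out in turn.

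Genes given in every library were the catalytic genes, Psmd4, Psmd14, the 4 highest and 4 lowest fold changes, any with no overlap of the groups, the TPM extremes of each particle, and from each pathway list up to 3 genes with the smallest p (most of these are given by fold change only). Psmc1 and Nfe2l1 were added after their values were seen. The member genes and lists were chosen with earlier results of these data known. Promoters and overlaps came from RefSeq (GRCr8), used for names and sequences only. Plots used Python 3.11.15 with matplotlib 3.10.9.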

Additional observations from a re-analysis of the deposited data

How the results depend on the processing

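No proteasome gene was called under any of 13 alternatives (smallest adjusted p of a named gene 0.852), and the difference between the core and regulatory particles kept its sign, from -0.12 (median over genes) to -0.05 (both libraries named below left out, or chaperones and tissue-specific genes included). Over all genes, 9 were called by DESeq2, 1 by limma with either pseudocount, and 0 to 1 as libraries were left out, against 0 in edgeR. The number of core genes below 0 was 14 with all libraries and ran from 7 to 14 as libraries were left out; for the regulatory particle it was 12 and ran from 4 to 15, the lowest in both cases without both CIH replicate 1 and control replicate 3. Same-numbered libraries did not deviate together (correlations of -0.222, -0.0457 and -0.176). With 3 libraries a group this cannot exclude a pairing by number, and the main fit used none. With the replicate number as a block, 0 genes were called, 10 regulatory genes were below 0 and Psmb8 turned to 0.01. Psmg3 turned to 0.03 and 0.04 in limma on TPM. Leaving out libraries here includes the fit without both CIH replicate 1 and control replicate 3, a choice made after seeing the data. Psmb5, Psmb7 and Mafg turned only in that fit. Of 39 named genes, 18 kept their sign throughout and 20 turned when libraries were left out. Their log2 fold changes then ran from -0.09 to 0.10 (Psma3), -0.36 to 0.43 (Psma8), -0.31 to 0.05 (Psmb5), -0.23 to 0.05 (Psmb7), -0.12 to 0.23 (Psmb11), -0.21 to 0.06 (Psmc3), -0.03 to 0.09 (Psmc6), -0.09 to 0.06 (Psmd9), -0.48 to 0.03 (Psmd10), -0.08 to 0.14 (Psmd12) and -0.13 to 0.04 (Psmd14). For pathway genes they ran from -0.25 to 0.21 (Psmb8), -0.25 to 0.13 (Psmb10), -0.23 to 0.20 (Psmg2), -0.13 to 0.09 (Usp14), -0.15 to 0.01 (Txnl1), 0.00 to 0.13 (Mafg), -0.02 to 0.21 (Ubqln4), -0.14 to 0.09 (Ubb) and -0.14 to 0.06 (Uba1). With 3 libraries a group, the 95% intervals of the core genes span at most -0.58 to 0.32, and differences within them are not excluded.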
